A study of Ovis aries with 7 samples.

Results

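RNA polymerase II (Pol II) and its general transcription factors were described here as a module of 48 genes in 8-cell embryos of sheep (Ovis aries). Members were found by gene name, with a rule set when earlier results of these data were known. They comprise the Pol II subunits POLR2A to POLR2L, the genes of TFIIA, TFIIB, TFIIE, TFIIF and TFIIH whose names begin with GTF2, the TBP-associated factors (TAF genes) and TBP itself. They are 48 of 31304 rows of the expression table, and 48 of 16539 rows with a gene symbol. The TFIIH gene GTF2H2 was not analysed here.

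Messenger RNA was captured by its polyA tail, amplified and sequenced with Smart-seq2, a low-input method, of 2 kinds of embryo. Libraries labelled IVF (replicates 1, 2 and 3) came from eggs fertilized in vitro, and 4 labelled SCNT from somatic cell nuclear transfer, which puts the nucleus of a body cell into an egg. Nothing in the sources used here states the breed, the parents, the donor cells or how many embryos a library holds, and nothing ties a library to a separate trial, so spread between libraries may be partly technical. Only the IVF columns of the table could be matched to samples by name, since the other 4 columns bear a name found in no label. The SCNT libraries were therefore not analysed here, and every value below describes the 3 IVF libraries.

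Levels are in TPM, which correct read numbers for gene length and for each library's total. The gene lengths used for this are unknown. Whether levels still vary with transcript length for technical reasons was not tested, which limits comparisons between genes of unlike length. Errors are SDs over the 3 libraries. Read depth is lost in this unit, so no counting interval or detection limit can be given. An exact two-sided sign-flip test over 3 libraries cannot go below p = 0.25, so no test was run, and differences between genes are read against their SD over libraries. In whole-embryo libraries, fewer cells with a transcript and less of it per cell cannot be told apart.

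Pol II transcribes the protein-coding genes. At a promoter, TFIID, made of TBP and TAFs, binds first, TFIIA and TFIIB steady TBP on DNA and join it to the polymerase, TFIIF arrives with the polymerase, and TFIIE and TFIIH open the DNA and allow transcription to start. Early embryos begin with RNA stored by the oocyte and then switch to transcription of their own genome, and growing oocytes are known to use germline relatives of several of these factors. The levels given here do not separate stored RNA from newly made RNA.

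All but 1 of the 48 genes were present throughout. Counting 1 TPM or more in every library as detected, 47 of 48 members were detected, against 49.0% of all 16539 symbol rows. The exception was TAF7L, a germ-cell relative of TAF7, at 0.184, 1.59 and 0.393 TPM in replicates 1, 2 and 3. The median member stood at 32.0, 56.9 and 38.8 TPM in the same order, 42.6 ± 12.9, while the median symbol row stood at 1.51 ± 0.213. A mean of 100 TPM or more was reached by 16 members, and 6 had a mean under 5 TPM. All members together took 0.886 ± 0.0393% of TPM, and 74.7 ± 2.05% of that belonged to the 12 Pol II subunits.

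**Figure D1:**
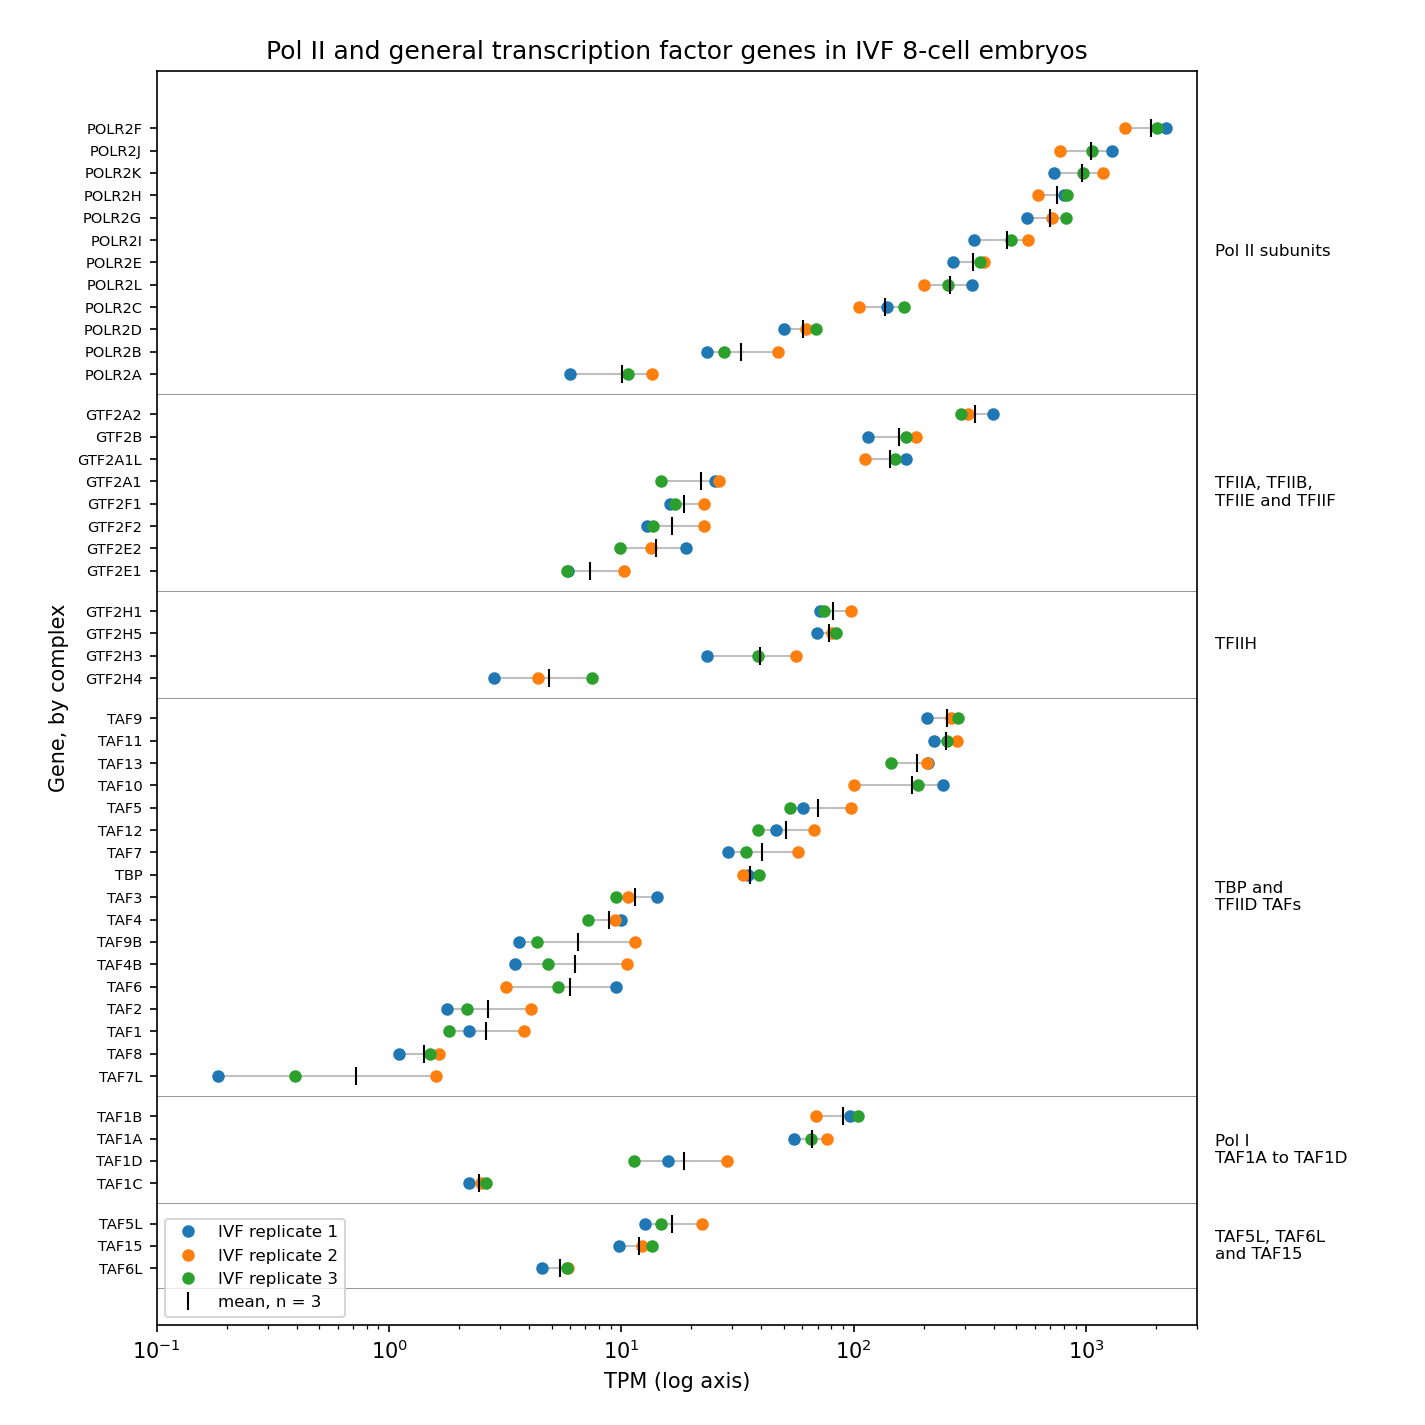
TPM (log axis) of all 48 members in the 3 IVF libraries, grouped by complex and ordered by mean within each group, where coloured points are libraries, grey lines join the lowest and highest library and black ticks are means. Pol II subunits spread from POLR2A at 10.1 TPM to POLR2F at 1897, and TAF7L is the lowest of all members.

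Pol II subunits were the most abundant group and the lowest of them was the catalytic one. Their median was 326, 461 and 412 TPM in replicates 1, 2 and 3, 399.7 ± 68.6. POLR2A, the largest subunit, which carries the catalytic centre and the repeated C-terminal domain (CTD), was at 5.98, 13.6 and 10.7 TPM (10.1 ± 3.83). POLR2B, the other large subunit of the catalytic core, followed at 23.4, 47.3 and 27.7 (32.8 ± 12.8). POLR2B exceeded POLR2A in 3 of 3 libraries, by 1.61 ± 0.28 on the log2(TPM + 1) scale. These 2 genes were the lowest Pol II subunits in every library.

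Smaller subunits that help assemble the enzyme or sit on its surface were higher. POLR2C, which pairs with POLR2J to start assembly, was at 139, 105 and 165 TPM (136 ± 29.7). Its partner POLR2J was at 1296, 775 and 1062 (1045 ± 261), among the highest members of the module. The stalk of the enzyme is made of POLR2D and POLR2G, and they too were unequal.
POLR2D was at 50.1, 62.1 and 69.0 TPM (60.4 ± 9.56). POLR2G was at 557, 716 and 816 (696 ± 130.4), above POLR2D in each library. POLR2I, which contributes to accurate transcription and RNA cleavage, was at 328, 561 and 476 (455 ± 118), lowest in replicate 1.

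The subunits POLR2E, POLR2F, POLR2H, POLR2K and POLR2L also belong to RNA polymerases I and III. POLR2F was the most abundant member of the whole module in every library, at 2212, 1467 and 2011 TPM in replicates 1, 2 and 3 (1897 ± 385), above 99.6% of symbol rows by mean. POLR2K was at 728, 1182 and 972 (961 ± 227) and was highest in replicate 2, where POLR2F was lowest. POLR2H was at 802, 622 and 830.2 (751 ± 113).
POLR2E and POLR2L, the other two shared subunits, lay lower than these. POLR2E was at 267, 362 and 348 (325 ± 51.5) and POLR2L at 324, 200.1 and 255 (259.7 ± 62.1). The 5 shared subunits had a median of 727 ± 104 TPM, and the 7 others 136 ± 29.7. The 2 sets overlapped, since POLR2J and POLR2G exceeded POLR2E and POLR2L.

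Over the 12 subunits the highest mean was 188 times the lowest. Of the 11 steps between neighbours in the order of means, 7 had the same order in 3 of 3 libraries and a difference above its SD. POLR2F exceeded POLR2J by 0.87 ± 0.09 on the log2(TPM + 1) scale, and POLR2C exceeded POLR2D by 1.15 ± 0.36. Other steps were smaller than their spread: POLR2J over POLR2K (0.12 ± 0.72), POLR2K over POLR2H (0.34 ± 0.54), POLR2H over POLR2G (0.12 ± 0.37) and POLR2E over POLR2L (0.34 ± 0.57). Among all 48 members, where levels lie closer together, 8 of 47 steps between neighbours had the same order in 3 of 3 libraries.

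TBP, which binds the TATA element and serves all 3 polymerases, was one of the steadiest members. It was at 35.1, 33.3 and 39.2 TPM in replicates 1, 2 and 3 (35.9 ± 3.04), with a highest library 1.18 times the lowest. The 17 genes of TBP and TFIID TAFs had a median of 11.7 ± 2.41 TPM, and their means ran from 0.723 to 251. The high end was held by small TAFs with histone-like folds. TAF11 was at 222, 279 and 251 (250.5 ± 28.4), and TAF13, with which it pairs, at 209, 206 and 144 (186 ± 36.7). TAF9 was at 207, 263 and 282 (251 ± 38.7). In the RefSeq gene table TAF9 lies wholly inside AK6, an adenylate kinase gene at 566, 620.3 and 588 TPM, so reads of the 2 genes may be divided by the counting and the level of TAF9 is uncertain. TAF10 was at 242, 100.2 and 189.7 (177 ± 71.8), and replicate 2 was its lowest library.

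By mean, TAF1, TAF2 and TAF8 were the lowest of the TFIID genes detected in every library. TAF1, the largest TFIID subunit, which holds bromodomains and binds TAF7, was at 2.2, 3.79 and 1.81 TPM (2.60 ± 1.05). TAF2, which contacts the initiator sequence at the start site, was at 1.77, 4.07 and 2.17 (2.67 ± 1.23). TAF8, needed to build the lobe of TFIID that holds TAF2, was at 1.11, 1.64 and 1.49 (1.41 ± 0.276), the lowest member detected in every library.
TAF3, whose finger domain reads a methylated histone tail at active promoters, was at 14.3, 10.7 and 9.49 (11.5 ± 2.49). TAF4 was at 10.0, 9.42 and 7.21 (8.88 ± 1.47). TAF6 was at 9.51, 3.20 and 5.34 (6.02 ± 3.21), and its libraries differed 2.97-fold. Between these ends lay TAF5, a WD40-repeat scaffold, at 70.4 ± 23.5, TAF12 at 50.9 ± 15.0 and TAF7 at 40.2 ± 15.1. TAF5, TAF12 and TAF7 were each highest in replicate 2.

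Within the histone-fold pairs that form inside TFIID, partners differed widely except for 1 pair. These pairs were chosen with the values known. TAF11 and TAF13 were close, with a difference of 0.44 ± 0.36 on the log2(TPM + 1) scale. TAF9 exceeded TAF6 by 5.25 ± 0.86, with TPM ratios of 21.8, 82.3 and 52.8 in replicates 1, 2 and 3, subject to the overlap with AK6. TAF12 exceeded TAF4 by 2.37 ± 0.32. TAF10, which pairs with either TAF8 or TAF3, exceeded TAF8 by 6.12 ± 0.80 and TAF3 by 3.76 ± 0.57. With a pseudocount of 5 instead of 1, the difference from the low gene TAF8 was 4.74. In each of these 4 unequal pairs the difference had the same sign in 3 of 3 libraries. Whether transcript length played a part was not tested.

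Relatives of TFIID subunits differed in how far they lay from their paralogs. TAF4B, known for its role in the ovary, was at 3.50, 10.6 and 4.84 TPM (6.30 ± 3.75) and lay below TAF4 in replicates 1 and 3 but above it in replicate 2. The difference, -0.54 ± 0.72 on the log2(TPM + 1) scale, was smaller than its spread. TAF9B was at 3.62, 11.5 and 4.35 (6.48 ± 4.33) and lay below TAF9 by -5.21 ± 0.70 (first gene minus second) in 3 of 3 libraries. Without replicate 2, TAF9B averaged 3.99 TPM, TAF4B 4.17 and TAF7L 0.289. TAF7 was at 28.8, 57.3 and 34.5 (40.2 ± 15.1) and exceeded TAF7L in 3 of 3 libraries, with a difference of -4.61 ± 0.10 (TAF7L minus TAF7), or -2.94 with a pseudocount of 5 and -5.96 with 0.1. The TPM ratios of TAF7L to TAF7 were 0.00640, 0.0278 and 0.0114 in replicates 1, 2 and 3. The pseudocount hides most of that spread for so low a gene, so the SD of 0.10 understates it.

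TBP has relatives outside the module, and 1 of them was far more abundant than TBP. The 5 relatives and regulators of TBP had a median of 25.9 ± 5.01 TPM. TBPL1, a TBP-like factor that does not bind the TATA element, stood at 926, 603 and 680.0 TPM in order of replicate number (736 ± 169). It was 26.4, 18.1 and 17.3 times TBP in the same libraries. The difference was 4.30 ± 0.33 on the log2(TPM + 1) scale. TBPL2, known from mice as the TBP of growing oocytes, was at 17.2, 8.09 and 11.8 (12.4 ± 4.59), below TBP in 3 of 3 libraries with a difference of -1.52 ± 0.48 (TBPL2 minus TBP). The TBP regulators DR1 and DRAP1, which form a repressor of initiation together, were at 25.9 ± 4.95 and 249 ± 113, and BTAF1, which removes TBP from DNA, was at 23.7 ± 6.18. DRAP1 was lowest in replicate 2, at 357, 131 and 259 in replicates 1, 2 and 3.

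TFIIA showed the same kind of difference between relatives. GTF2A1L, the germ-cell relative of the large TFIIA subunit, was at 167, 111 and 151 TPM (143 ± 28.6). GTF2A1, the widely expressed form, was at 25.2, 26.2 and 14.8 (22.1 ± 6.32), so GTF2A1L was 6.64, 4.25 and 10.2 times as high in replicates 1, 2 and 3. The difference was 2.66 ± 0.61 on the log2(TPM + 1) scale, and the libraries of the 2 genes did not overlap. GTF2A2, the small TFIIA subunit that pairs with either, was at 397, 311 and 288 (332 ± 57.1), the highest of the GTF2 genes. It exceeded GTF2A1 by 3.88 ± 0.34. GTF2A2 shares most of its span with BNIP2 in the RefSeq gene table, and BNIP2 was at 0.759, 1.90 and 0.949 TPM.

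**Figure D2:**
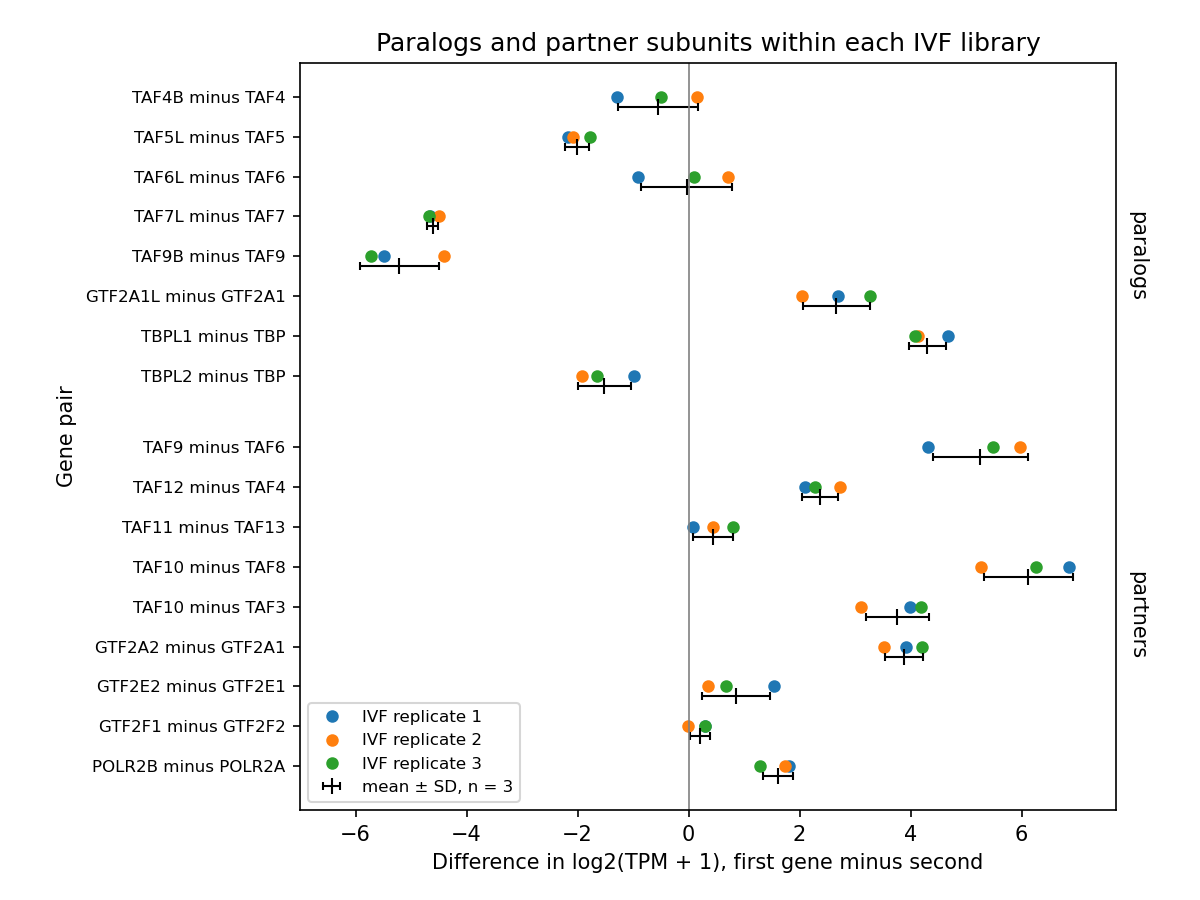
Difference in log2(TPM + 1) between paralogs (top) and partner subunits (bottom), first gene minus second, within each IVF library (coloured points) with mean ± SD over 3 libraries (black). TBPL1 and GTF2A1L lie above TBP and GTF2A1 in every library, TAF4B and TAF6L lie on both sides of their paralogs, and TAF10 over TAF8 is the widest partner difference.

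TFIIB and the factors that act after it were uneven. GTF2B, the single protein that is TFIIB, was at 115, 185 and 168 TPM (156 ± 36.2). The TFIIE subunits GTF2E1 and GTF2E2, which bring in TFIIH, were at 5.87, 10.3 and 5.81 and 18.9, 13.4 and 9.83 in replicates 1, 2 and 3. GTF2E2 was the higher in 3 of 3 libraries, by 0.85 ± 0.61 on the log2(TPM + 1) scale. The TFIIF subunits GTF2F1 and GTF2F2 were nearly level, at 18.6 ± 3.53 and 16.4 ± 5.48, and their order differed between libraries. Of the 8 genes of TFIIA, TFIIB, TFIIE and TFIIF, the median was 20.8 ± 4.40 TPM.

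TFIIH, which opens promoter DNA and also repairs DNA, had a median of 57.2 ± 11.0 TPM over its 4 members. GTF2H1 and GTF2H5, a core subunit and a small subunit that steadies the complex, were at 81.1 ± 14.0 and 78.1 ± 7.65. GTF2H3 was at 23.3, 56.5 and 38.8 and GTF2H4, which anchors the helicase ERCC3, at 2.84, 4.36 and 7.47 TPM, each lowest in replicate 1. The TFIIH genes outside the name rule had a lower median, which over 5 genes was 7.30 ± 0.792 TPM. The CTD kinase CDK7 was at 51.3 ± 1.91, ERCC3 at 20.2 ± 2.21 and CDK7's partner cyclin CCNH at 7.30 ± 0.792, and the lowest were ERCC2 at 4.46 ± 1.09 and the kinase assembly factor MNAT1 at 0.544, 2.03 and 1.44. Of these 5, 4 were at 1 TPM or more in every library.

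Some TAF genes that the name rule finds work outside TFIID. TAF1A, TAF1B, TAF1C and TAF1D belong to the factor that brings RNA polymerase I to ribosomal RNA genes. TAF1B and TAF1A were at 96.4, 69.1 and 104 and 55.0, 77.0 and 65.6 TPM in replicates 1, 2 and 3, whereas TAF1C was at 2.21, 2.48 and 2.61. TAF1D was at 15.8, 28.4 and 11.3 (18.5 ± 8.88), and in the RefSeq gene table it contains small nucleolar RNA genes, whose reads could be counted with it. TAF5L and TAF6L, which take the places of TAF5 and TAF6 in the SAGA coactivator, were at 16.6 ± 4.99 and 5.42 ± 0.740. TAF5L lay below TAF5 in 3 of 3 libraries, with a difference of -2.01 ± 0.21 (TAF5L minus TAF5). TAF6L and TAF6 changed order between libraries, with a difference of -0.03 ± 0.82. TAF15, an RNA-binding protein of another family, was at 9.74, 12.3 and 13.6 (11.9 ± 1.96).

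Members were compared between libraries for differences of 2-fold or more. For the 42 members averaging 5 TPM or above, each library was compared with the mean of the other two on the log2(TPM + 1) scale, and a difference of at least 1, or 2-fold, was counted. With 1 library against 2 of its own group there is no replicate check. The 5 TPM filter uses the mean of all 3 libraries, including the one being compared. In replicate 2, 3 of 42 members were at least 2-fold higher, or TAF9B (1.33), TAF4B (1.17) and TAF1D (1.03), against 12.8% of 6978 rows. TAF10 was at least 2-fold lower there (-1.09), against 3.85% of rows. Without replicate 2, TAF9B and TAF4B averaged 3.99 and 4.17 TPM, so they passed the filter only through the library where they were high. The share of all rows called higher carries the same limit. In replicate 1, TAF6 was higher (1.03), against 5.65% of rows, and no member was lower, against 7.71%. TAF6 averaged 4.27 TPM without replicate 1, so it too passed the filter only through the library where it was high. In replicate 3 no member passed in either direction, against 0.817% of rows higher and 2.62% lower. Several of these values sit close to the threshold, and GTF2H3 in replicate 1 (-0.98) and TAF6 in replicate 2 (-0.96) fell just short of it.

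In replicate 2, members of low and of high level had different medians, and so did all rows of those levels. The median of all 6978 rows was 0.19 in replicate 2 against the other libraries, and the median member 0.24, with 29 of 42 members above 0 against 60.3% of rows. Of 26 members with a mean of 5 to 100 TPM, 21 were higher in replicate 2, with a median of 0.42, beside 0.24 for the 5760 rows of that level, of which 62.8% were higher. Of 16 members at 100 TPM or more, 8 were higher, with a median of -0.02, beside -0.03 for 1218 rows, of which 48.3% were higher. The abundant subunits lay on both sides, each within 2-fold: POLR2F (-0.52), POLR2J (-0.60), POLR2L (-0.52) and POLR2C (-0.52) were lower in replicate 2, while POLR2I (0.50) and POLR2K (0.49) were higher. The large catalytic subunits POLR2A (0.69) and POLR2B (0.87) were higher as well. With libraries rescaled by the median of ratios, which shifts replicates 1, 2 and 3 by 0.07, -0.25 and 0.14 (log2), 19 of 42 members lay above 0 in replicate 2. The median member was then -0.11 and the median row -0.15. This rescaling moves every gene of a library by nearly the same amount, so the shared change of sign says nothing about the members. TAF9B higher and TAF10 lower were called under both scalings, TAF4B and TAF1D were not, and TAF6 became a further member called lower in replicate 2.

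**Figure D3:**
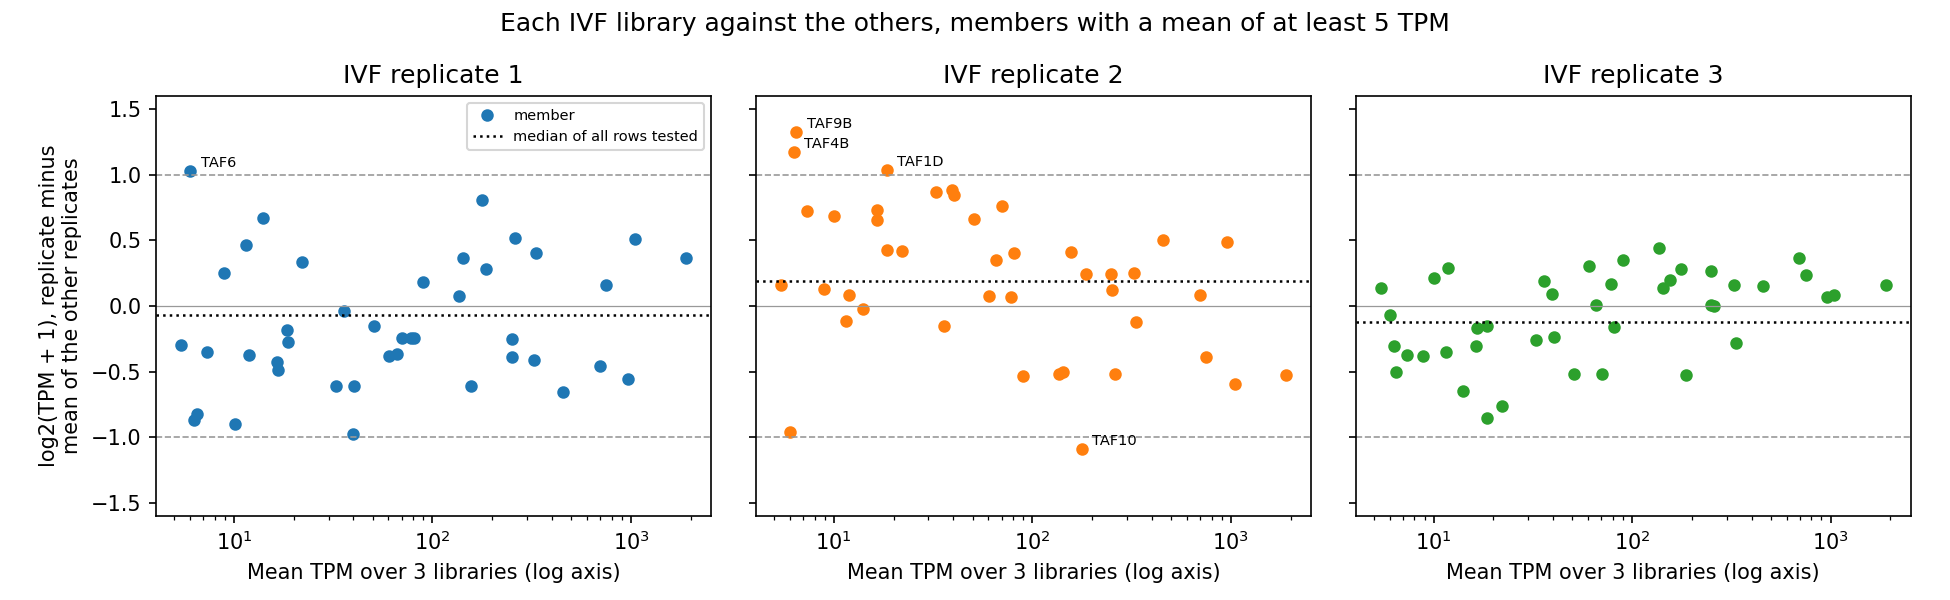
Each IVF library against the mean of the others, in log2(TPM + 1), for 42 members averaging 5 TPM or above, plotted by mean TPM (log axis), where dashed lines mark 2-fold and the dotted line is the median of all 6978 rows. In replicate 2 points of low mean lie mostly above 0 and points of high mean on both sides, and no point of replicate 3 passes 2-fold.

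The spread over libraries was close to that of other genes of like level. The median SD over libraries of log2(TPM + 1) was 0.33 for the 42 members and 0.40 for the 6978 rows. At 5 to 100 TPM it was 0.41 for members and 0.41 for all rows, and at 100 TPM or more 0.31 and 0.35. Ranks of the 48 members correlated between libraries with Spearman coefficients of 0.979 to 0.984. That describes the order of genes that span a wide range of levels and are not independent replicates.

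Pol II subunits had a higher median than the subunits of the other nuclear polymerases. Pol I subunits had a median of 24.1 ± 5.88 TPM over 8 genes and Pol III subunits 24.0 ± 3.64 over 11, neither list holding the 5 shared subunits, while the 7 Pol II subunits that are not shared by all 3 enzymes had 136 ± 29.7. The highest genes of the Pol I and Pol III lists were POLR1D (471 ± 34.9), a subunit of both Pol I and Pol III, and the small Pol III subunit POLR3K (728 ± 248). The catalytic subunits were at 5.01, 8.68 and 8.24 (POLR1A) and 3.94, 12.0 and 9.35 TPM (POLR3A) in replicates 1, 2 and 3. Unlike POLR2A, they were not the lowest of their lists. By mean, POLR1G (5.75), POLR1B (6.28) and POLR1C (6.88) lay below POLR1A (7.31). POLR3B (6.30) and POLR3GL (0.722) lay below POLR3A (8.43). POLR3G, a Pol III subunit known from early embryos and stem cells, was at 47.1, 42.0 and 46.3, and its relative POLR3GL at 0.128, 0.946 and 1.09.

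Genes that act on Pol II after initiation had medians below that of the Pol II subunits. The 22 genes of pausing and elongation had a median of 20.8 ± 5.97 TPM, and 20 had 1 TPM or more in every library. The highest was the elongation factor ELL2, at 93.9, 325 and 122 in replicates 1, 2 and 3, followed by the pause-release kinase CDK9 (92.4 ± 23.8) and RTF1 (68.7 ± 14.3). SUPT4H1, the small subunit of the factor DSIF, was listed at 0 in all libraries and lies wholly inside RNF43 in the RefSeq gene table. RNF43 itself was at only 0.0812, 0.159 and 0.0226 TPM in replicates 1, 2 and 3. NELFB, a pausing factor, was the next lowest at 2.79, 0.724 and 1.31. In replicate 2, 4 of 19 of these genes averaging 5 TPM or above had values at least 2-fold higher, against 12.8% of rows: ELL2 (1.59), LARP7 (1.99), AFF4 (1.46) and SUPT6H (1.02). The same 4 genes were at least 2-fold lower in replicate 1, against 7.71% of rows, with ELL2 at -1.08, LARP7 at -1.19, AFF4 at -1.21 and SUPT6H at -1.43. These calls are not independent of those in replicate 2, which is part of the mean that replicate 1 was set against. In replicates 1 and 3, LARP7 was at 12.9 and 15.6 TPM and ELL2 at 93.9 and 122. AFF4 was at 2.32 and 4.16 in the same libraries, and SUPT6H at 4.52 and 11.9. Both values of AFF4 are under 5 TPM, so it passed the filter only through replicate 2, where it was high. SUPT6H in replicate 2 lay close to the threshold, and these calls are given for TPM as deposited only. Genes that assemble Pol II or act on its CTD had a median of 10.2 ± 2.75 over 11 genes, led by the CTD phosphatase SSU72 (169 ± 60.8), with RPRD1A at 39.2 ± 0.789 and GPN3 at 37.9 ± 14.6 TPM and CTDP1 lowest at 1.54 ± 0.327.

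**Figure D4:**
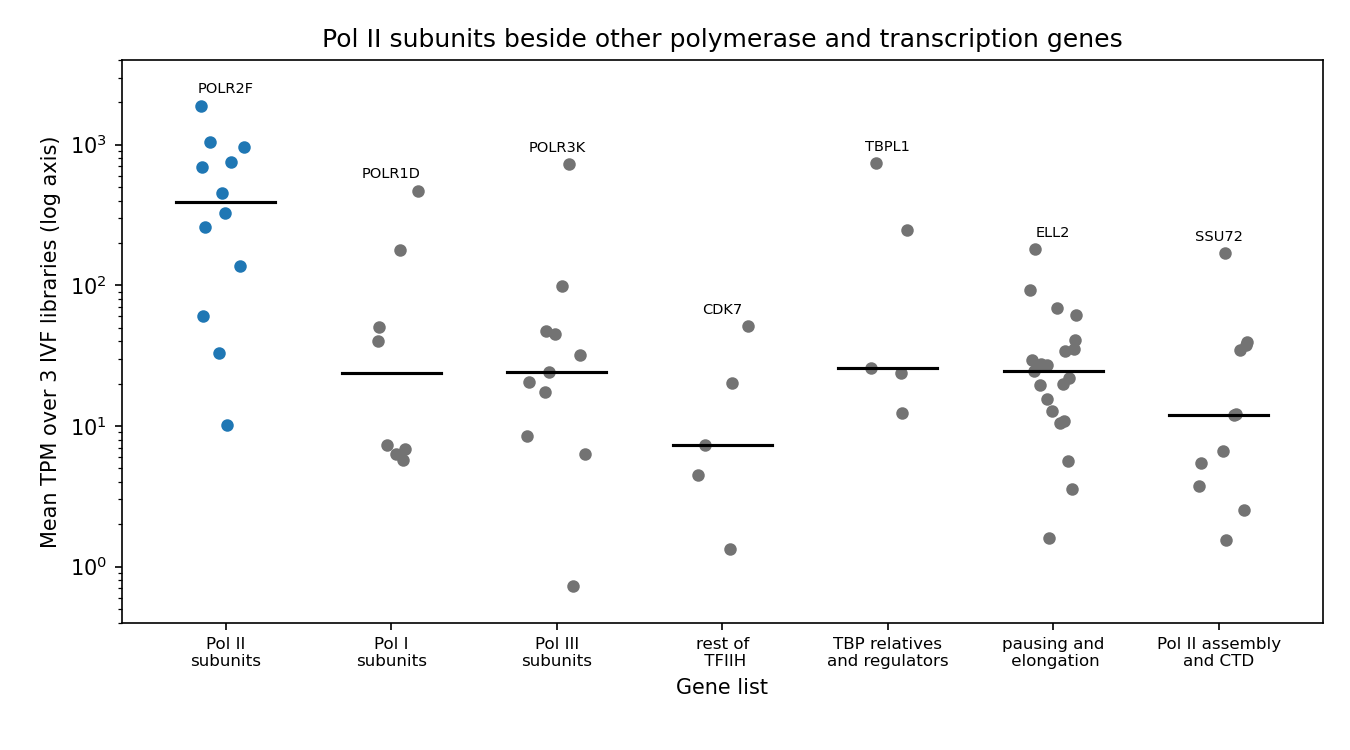
Mean TPM over the 3 IVF libraries (log axis) of Pol II subunits (blue) and genes of 6 related lists (grey), with the median of the plotted genes as a black line and the highest gene named. SUPT4H1, at 0, is not drawn, and the Pol II subunits reach higher than any of the other lists.

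Summed markers of embryo and oocyte were high and those of other cells low, but some single markers overlapped. All 6 embryo and genome activation markers were at 1 TPM or more in every library, with summed levels of 569 to 1407 TPM, and all 6 oocyte markers, 946 to 1427. At that level were 2 of 7 cumulus and granulosa markers (CYP19A1 was not analysed here; summed 10.9 to 18.4 TPM, FOXL2 at 0), 2 of 8 fibroblast markers (11.3 to 18.9) and 0 of 5 sperm markers (3.44 to 6.70, PRM1 at 0). ARGFX held most of the embryo sum, at 376, 1022 and 444 TPM in replicates 1, 2 and 3. In the same order, the embryo markers NANOG and SOX2 were at 5.2, 17.1 and 18.4 and 15.2, 11.2 and 12.3. The cumulus marker HAS2 was at 9.86, 13.1 and 7.09 and the fibroblast marker VIM at 6.48, 8.84 and 8.37. HAS2 and VIM exceeded NANOG in replicate 1, and HAS2 exceeded SOX2 in replicate 2. Elsewhere NANOG and SOX2 were the higher. The summed embryo, oocyte, cumulus, fibroblast and sperm markers were each highest in replicate 2, but single markers differed in direction. Of the 6 oocyte markers, ZP2, ZP4 and GDF9 were at least 2-fold higher in replicate 2 and MOS at least 2-fold lower, at 493, 162 and 287 TPM in replicates 1, 2 and 3. ZP3, SOX2 and THY1 were also lowest in replicate 2, and NANOG was highest in replicate 3. The part of these markers in the values of replicate 2 was not tested.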

How the data were processed

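PolyA RNA went through 20 cycles of PCR before paired-end sequencing of 150 nucleotides, per the labels' protocols. The authors deposited 1 table of TPM values with 31304 rows and 7 columns. Trimming used fastp 0.23.4 and alignment HISAT2 2.2.1 (per the submitters' processing notes). The genome builds named with these tools are GRCm39, of mouse, and Sscrofa11.1, of pig. Neither the sheep build nor the annotation or counter is given in the sources used here.

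Columns were assigned by name only. Of 7, 3 match IVF samples, and 4 match no label: these were left out, although their values were seen while the table was inspected. The planned limma comparison of SCNT with IVF was therefore not run.

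All 48 members matched the RefSeq gene table of ARS-UI_Ramb_v3.0, used only for names and overlaps, since its build may differ. The members, gene lists and pairs were chosen with earlier results of these data known. Every member is named. In related lists up to 3 of the highest and 2 of the lowest genes are named, and further ones were chosen after their values were seen. Log values take a pseudocount of 1, which shrinks ratios of low genes. The 2-fold step was checked on simulated data, with planted changes larger than 2-fold and less noise than the libraries showed. That checks the calculation only, and not how often real rows pass. Alternatives were other thresholds, pseudocounts and scalings, and leaving out each library. Software was Python 3.11.15 with pandas 2.3.3, numpy 2.4.6, scipy 1.17.1 and matplotlib 3.10.9.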

Additional observations from a re-analysis of the deposited data

How the results depend on the processing

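The comparison of SCNT with IVF was not run. No paired analysis was possible because only IVF libraries were used. Detected members numbered 47 at 1 TPM, 48 at 0.1 TPM and 38 at 5 TPM, and 47 whichever library was left out. The median member ranged from 35.4 TPM without replicate 2 to 47.9 without replicate 1, and was 41.4 by the median of ratios and 51.6 without mitochondrially encoded and ribosomal protein genes. Members at least 2-fold from the other libraries numbered 1 in replicate 1, 4 in replicate 2 and 0 in replicate 3. These counts were the same with a mean of at least 1 TPM as the filter. With a pseudocount of 0.1 replicate 1 had 3, with a pseudocount of 5 replicates 1 and 2 had 0 and 1, and without mitochondrially encoded and ribosomal protein genes replicate 1 had 2. With a library left out, so that 1 is set against 1, the counts ranged from 0 to 6 in replicate 1, 2 to 6 in replicate 2 and 0 to 2 in replicate 3. That alternative and the one relative to the median gene were chosen after seeing the data.

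Of the paralog differences, TAF6L minus TAF6 was -0.03 with all libraries and turned to 0.41 without replicate 1, -0.40 without replicate 2 and -0.10 without replicate 3. With a pseudocount of 5, TAF5L minus TAF5 was -1.79 and TAF7L minus TAF7 -2.94, the latter -5.96 with 0.1, since a pseudocount weighs most on low genes. With a pseudocount of 5, 3 of the partner differences moved by more than their SD: TAF10 minus TAF8 to 4.74, TAF12 minus TAF4 to 1.98 and POLR2B minus POLR2A to 1.31. The other paralog differences kept their sign under every pseudocount and with each library left out. Of 96 member means under the 2 other scalings, 76 moved by less than their SD over libraries and 20 moved further, all of them in the table rescaled without mitochondrially encoded and ribosomal protein genes, which raises every other gene. Depth is unknown, so low values such as those of TAF7L and TAF8 cannot be told from sampling loss.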
